A study of Mus musculus with 12 samples.

Results

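The microRNA (miRNA) probes mmu-miR-184, mmu-miR-489, mmu-miR-207 and mmu-miR-878-3p of a mouse liver array series were chosen by their high measured signal in liver relative to a pool of mouse tissue RNA, although none is a textbook liver miRNA. They were 4 of 595 mouse miRNA probes on the array, found by their exact names, and all 4 were among the 212 that passed the filter on dim probes, which asked for a liver signal above background on 3 or more arrays in either group. The groups were 6 livers of BaP-treated mice and 6 livers of vehicle-treated mice. BaP is benzo(a)pyrene, a polycyclic aromatic hydrocarbon that liver enzymes convert to DNA-reactive products. Treated male B6C3F1 mice received BaP at 150 mg/kg daily for 3 days and control mice of the same sex and hybrid strain received corn oil. The labels give an age of 27 to 30 days while the design text calls the mice adult, and they name the median liver lobe while the design text speaks of random sections. All 12 livers were taken 4 h after the last dose, and a 24 h collection that the design also names was not analysed here. Each array carried 1 liver RNA in the red channel (Hy5 dye) and a purchased reference RNA from 10 mouse tissues in the green channel (Hy3 dye). The dyes were never exchanged, so a dye preference of a probe and its liver over reference ratio cannot be told apart.

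A miRNA guides an Argonaute protein to messenger RNAs mainly through its seed, bases 2 to 8, and represses them. miR-184 is known from the cornea and lens, where a seed mutation in human families causes eye disease. miR-489 lies within the calcitonin receptor gene and is known for keeping mouse muscle stem cells quiescent. miR-878 belongs to a rapidly evolving X-linked miRNA cluster that is expressed chiefly in testis. miR-122, by contrast, is the abundant miRNA of hepatocytes and served as the landmark of a liver-enriched probe.

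The mature sequences, from RefSeq on GRCm38.p6, are shown because the sequences of miR-489 and miR-878-3p resemble each other and their values also ran together. The array names miR-184 and miR-489 were matched to the 3p arms in RefSeq, and capitals mark the seed.
miR-184: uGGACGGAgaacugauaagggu
miR-489: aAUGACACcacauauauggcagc
miR-207: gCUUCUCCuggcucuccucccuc
miR-878-3p: gCAUGACAccacacuggguaga
The seeds of miR-184, miR-207 and miR-878-3p occurred in no other of the 1679 mature mouse miRNAs in the table, and that of miR-489 occurred in 1 other, miR-425-5p. G and C made up 50.0% of miR-184, 43.5% of miR-489, 65.2% of miR-207 and 54.5% of miR-878-3p, against a median of 52.2% over the table.

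miR-489 and miR-878-3p had an unbroken run of 11 bases in common, capitalised here, which began at base 2 of miR-489 and at base 3 of miR-878-3p.
miR-489: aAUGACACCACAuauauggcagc
miR-878-3p: gcAUGACACCACAcuggguaga
These were the only 2 of the 1679 mature sequences that held the run. Because it is offset by 1 base, the seeds themselves differ. No other pair of the 4 members had more than 4 bases in a row in common. The longest run of miR-184 with any mature mouse miRNA was 10 bases, with miR-7646-5p, and that of miR-207 was 11 bases, with miR-7062-3p.

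The members are encoded at 4 separate places. miR-184 is at chr9:89802263-89802284 on the minus strand, and its hairpin overlaps no other annotated gene. miR-489 is at chr6:3721922-3721944 on the minus strand, inside the span of Calcr and within 5000 bases of 1 other miRNA gene, Mir653. miR-207 is at chr4:40722968-40722990 on the plus strand, inside the span of Dnaja1, which encodes a co-chaperone of Hsp70. miR-878-3p is at chrX:66801518-66801539 on the minus strand, with 4 other miRNA genes of its cluster (Mir741, Mir463, Mir880 and Mir881) within 5000 bases. The gene table gives spans without exons, so exonic or intronic placement was not read from it.

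Tissue identity and array quality can be given briefly. The hepatocyte miRNAs miR-122, miR-192 and miR-194 were above background on all 12 arrays in liver, with mean log2 ratios from 2.64 to 3.85 in BaP livers and from 2.63 to 3.72 in vehicle livers. Of 5 neuronal markers and 4 muscle markers (miR-1, miR-133a, miR-133b and miR-206), none was above background in liver on all arrays. Of each list, 3 were above it on none. The muscle miRNAs miR-208a and miR-208b, also on the array, passed the filter on dim probes. Per array, 166 to 341 mouse miRNAs exceeded background in liver and 235 to 365 in the reference. The liver background limit was an intensity of 1.92 on vehicle 1, the array with 341, and 2.89 on BaP 1, against 16.2 to 28.8 on the other 10 arrays. BaP 2 stood apart in the reference channel: its background limit there was an intensity of 89.6, against 33.3 to 62.9 on the other arrays. Arrays were scanned on 4 days, each with both groups. The labels do not tie arrays to named animals, so each p-value reflects the spread over arrays, and 6 arrays per group limit their precision.

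The log2 liver over reference ratio chose the members, so their high ratios are a description and were not tested. In whole liver, more RNA per cell and more cells of a type cannot be told apart. Spots were background-corrected with an offset of 50, normalized within each array and averaged over 4 spots. miR-184 averaged 2.01 ± 0.85 in BaP livers and 2.38 ± 0.34 in vehicle livers (SD, n = 6 each). miR-489 averaged 1.76 ± 0.49 in BaP livers and 2.04 ± 0.35 in vehicle livers, with a reference signal above background on only 3 of 6 BaP and 4 of 6 vehicle arrays. miR-207 averaged 1.87 ± 0.23 in BaP livers and 1.92 ± 0.18 in vehicle livers.
miR-207 thus had the smallest SD of the 4 members in both groups. miR-878-3p averaged 1.72 ± 0.52 in BaP livers and 1.91 ± 0.50 in vehicle livers. Every member's ratio was above 0 on all 12 arrays. These sizes depend on the normalization: without normalization within arrays the vehicle means were 1.37 for miR-184, 1.25 for miR-489, 0.97 for miR-207 and 0.98 for miR-878-3p, and with median centring they were 1.51, 1.39, 1.12 and 1.12 in the same order. Without normalization, 11 of 12 arrays stayed above 0 for miR-184 and for miR-878-3p, and with median centring 11 of 12 did for miR-184. Those settings also placed the median of all 212 probes at -0.91 and -0.77 in vehicle livers, against -0.08 as reported.

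By the mean ratio in vehicle livers, the members took ranks 7 (miR-184), 10 (miR-489), 11 (miR-207) and 12 (miR-878-3p) of 212. In BaP livers they took ranks 8, 13, 11 and 15 in the same order of members. miR-122 ranked 1 with 3.85 ± 0.16 in BaP livers and 3.72 ± 0.15 in vehicle livers. Just above the members stood miR-101b at 2.34 ± 0.48 in BaP livers and 2.45 ± 0.42 in vehicle livers, and just below them miR-675-5p at 1.91 ± 0.23 in BaP livers and 1.88 ± 0.12 in vehicle livers.
miR-487b and miR-290-5p lay between miR-184 and miR-489, at ranks 8 and 9. The vehicle means of miR-184 and miR-489 differed by 0.34, about 1 SD of either, and no other neighbouring members differed by more than 0.12. The order among miR-489, miR-207 and miR-878-3p therefore lies within their spread. The rank of miR-207 was 22 when the processed signals of the scanner software were used and 10 to 13 under every other alternative run, while miR-489 reached rank 2 with those signals.

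**Figure D1:**
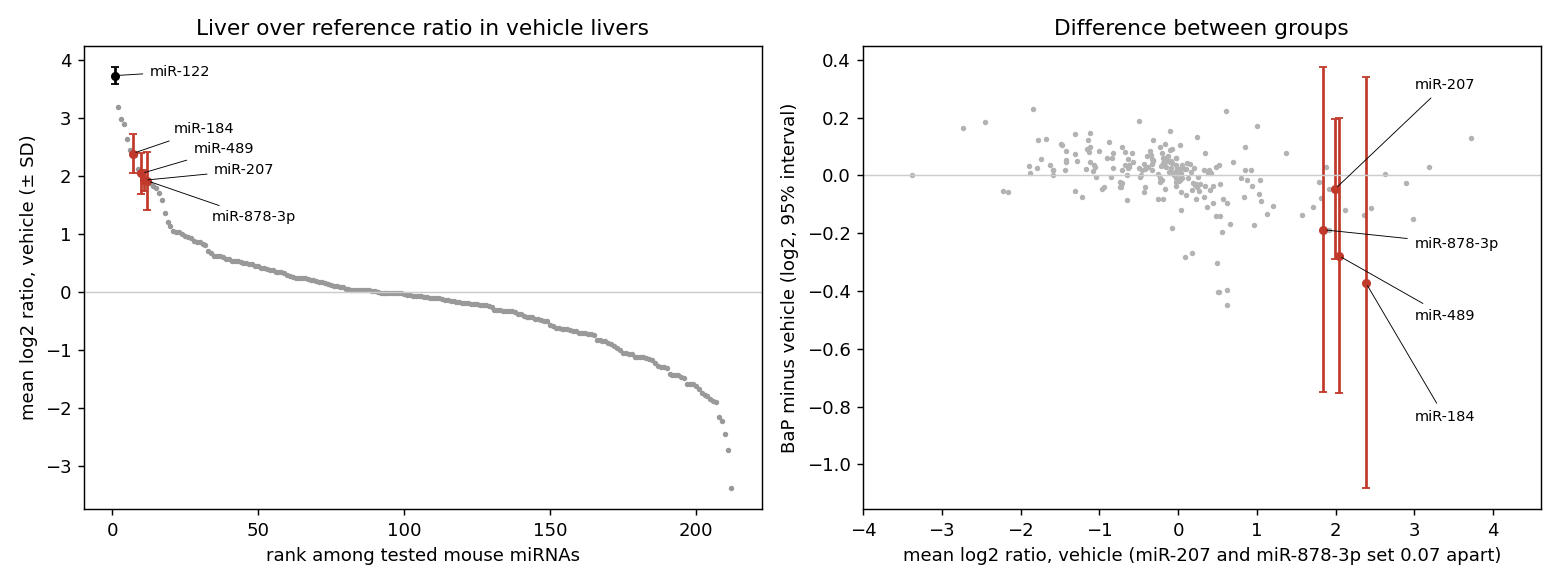
Left, mean log2 liver over reference ratio in vehicle livers of the 212 tested mouse miRNAs against their rank, with the SD over 6 arrays for the 4 members (red) and miR-122 (black); right, the BaP minus vehicle difference of the log2 ratio against the vehicle mean, with 95% intervals for the members. The members stand at ranks 7 to 12, and each interval on the right crosses 0.

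A ratio does not show whether the liver signal is strong or the reference signal weak, so both channels were read as net intensity, the mean signal minus local background. For miR-207 the liver net intensity was 485 to 1104 in BaP livers (median 645) and 509 to 1120 in vehicle livers (median 810). Its reference net intensity was 277 to 414 on BaP arrays (median 360) and 329 to 421 on vehicle arrays (median 387). Every liver value of miR-207 was at least 25.9 times its array's background limit, and it was the member measured furthest above background.

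For miR-184 the liver net intensity was 116 to 764 in BaP livers (median 281) and 254 to 584 in vehicle livers (median 497). The reference net intensity was 93.9 to 182 on BaP arrays (median 143) and 124 to 166 on vehicle arrays (median 139). Across the arrays the liver signal thus ranged more widely than the reference signal, and the low end of the liver range was BaP 2.

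For miR-878-3p the liver net intensity was 53.2 to 354 in BaP livers (median 220) and 103 to 307 in vehicle livers (median 256). The reference net intensity was 66.6 to 124 on BaP arrays (median 83.8) and 80.4 to 104 on vehicle arrays (median 96.7). On BaP 5 the net signal was lower in liver (53.2) than in the reference (66.6), and without normalization within arrays the lowest log2 ratio of miR-878-3p over the 12 arrays was -0.04.

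For miR-489 the liver net intensity was 51.9 to 258 in BaP livers (median 154) and 73.8 to 261 in vehicle livers (median 173). The reference net intensity was 31.2 to 96.8 on BaP arrays (median 46.9) and 37.3 to 57.7 on vehicle arrays (median 47.7). miR-489 was above background in the reference on only 7 of 12 arrays, 3 of BaP and 4 of vehicle livers, and in 27 of 48 spots. Its ratio therefore depends on how background is handled: the vehicle mean was 3.15 with processed signals and 3.09 without an offset, against 2.04 as reported. The other members were above background in both channels on all 12 arrays, and all 4 were so in liver in 48 of 48 spots. No member spot was saturated.

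**Figure D2:**
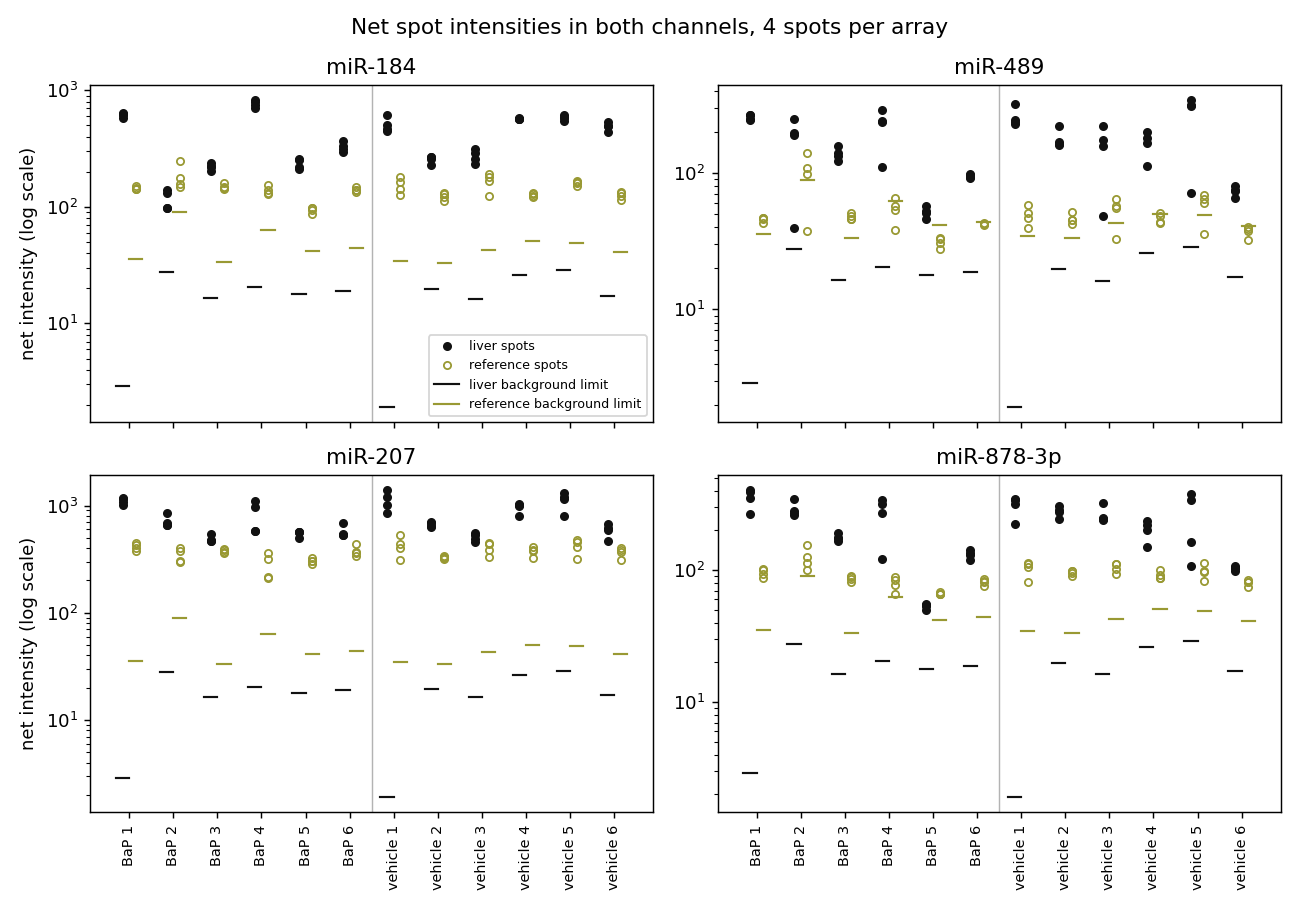
Net intensity (log scale) of the 4 spots of each member on each array, in liver (filled) and reference (open), with each array's background limit in both channels as short lines; BaP arrays are left of vehicle arrays. The reference spots of miR-489 lie near their limit, those of miR-207 far above it, and the liver spots of miR-184 on BaP 2 lie low together.

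The comparison of BaP with vehicle livers asked whether treatment moved these miRNAs. None of the 212 miRNAs was called by limma with Benjamini-Hochberg adjustment (0%; 2 had an unadjusted p under 0.05 and the smallest adjusted p was 0.789), and the members had adjusted p of 0.992 each. The groups overlapped for every member.

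miR-184 had log2 ratios of 2.71, 0.38, 1.85, 2.58, 2.25 and 2.28 on arrays BaP 1 to 6, and 2.39, 1.98, 2.20, 2.67, 2.17 and 2.88 on vehicle 1 to 6. One BaP array, BaP 2, was far below the other 11 while the other BaP values fell within or near the vehicle range. BaP minus vehicle was -0.37 (95% interval -1.08 to 0.34; exact permutation p = 0.405, two-sided, n = 6 each), and its SD in BaP livers was the largest of the 212. Without BaP 2 the difference was -0.05.

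miR-489 had log2 ratios of 2.45, 1.31, 2.08, 1.95, 1.14 and 1.63 on arrays BaP 1 to 6, and 2.43, 2.26, 2.13, 1.94, 2.04 and 1.40 on vehicle 1 to 6. BaP 5, BaP 2 and vehicle 6 were its lowest arrays, from both groups. BaP minus vehicle was -0.28 (95% interval -0.75 to 0.20; exact permutation p = 0.288, two-sided, n = 6 each), and 5 of 6 BaP values lay below the vehicle median. Without BaP 5 the difference was -0.15, and without BaP 2 it was -0.19.

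miR-207 had log2 ratios of 2.26, 1.59, 1.85, 1.80, 2.01 and 1.74 on arrays BaP 1 to 6, and 2.24, 1.90, 1.93, 1.94, 1.72 and 1.79 on vehicle 1 to 6. The highest BaP and the highest vehicle array were both scanned on day 1. BaP minus vehicle was -0.05 (95% interval -0.29 to 0.20; exact permutation p = 0.708, two-sided, n = 6 each). This was the narrowest interval of the 4 members, from 0.818-fold to 1.14-fold. The difference had the opposite sign, at 0.02 and 0.01, without vehicle 1 and without BaP 2.

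miR-878-3p had log2 ratios of 2.34, 1.81, 2.02, 1.81, 0.79 and 1.58 on arrays BaP 1 to 6, and 2.10, 2.34, 2.56, 1.66, 1.54 and 1.28 on vehicle 1 to 6. BaP 5 was lowest, and the vehicle values themselves spread over more than 1 log2 unit. BaP minus vehicle was -0.19 (95% interval -0.75 to 0.38; exact permutation p = 0.539, two-sided, n = 6 each). Without BaP 5 it was -0.0014, and without vehicle 3 it was -0.06.
The 95% intervals run from 0.472-fold to 1.27-fold for miR-184, 0.593-fold to 1.15-fold for miR-489 and 0.594-fold to 1.30-fold for miR-878-3p, so shifts of those sizes could not be told from none with these arrays. The offset compresses folds: a 2-fold rise in liver would appear as 1.90-fold for miR-184, 1.78-fold for miR-489, 1.94-fold for miR-207 and 1.82-fold for miR-878-3p.

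**Figure D3:**
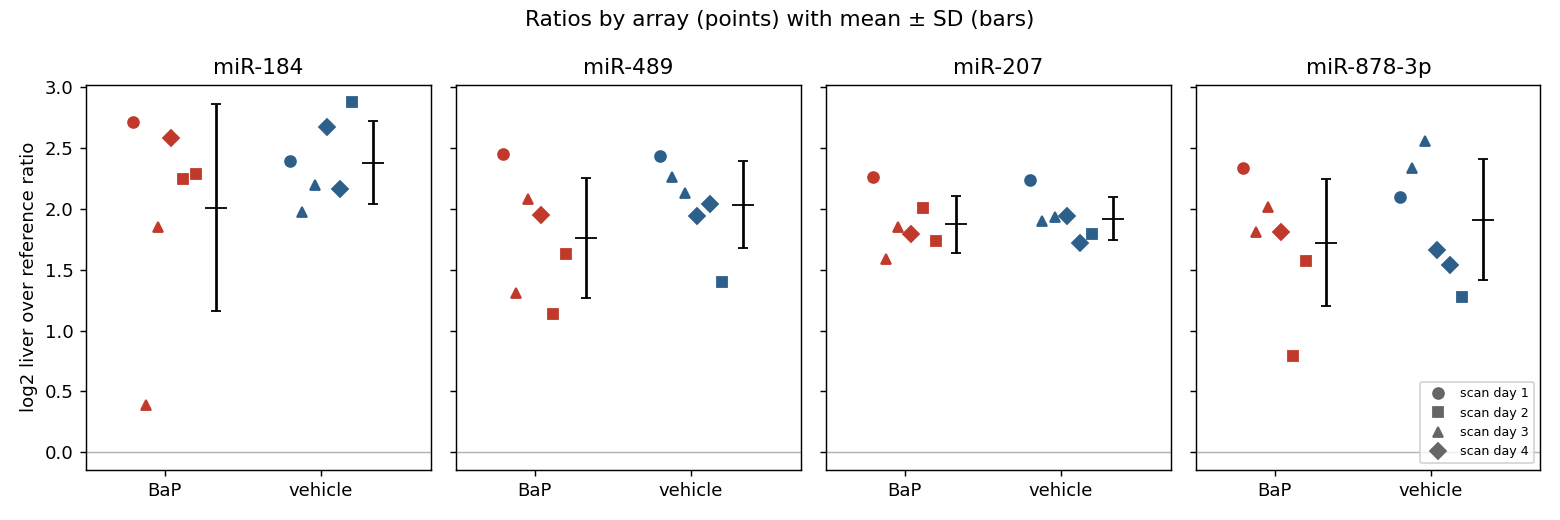
Log2 liver over reference ratio of each member on each array, BaP left of vehicle, with symbols for the scan day and the mean ± SD of 6 arrays beside each group. The groups overlap for all 4 members, miR-184 has 1 array, BaP 2, at 0.38, and the day 2 arrays (squares) are among the lowest for miR-489 and miR-878-3p.

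The reference RNA was the same on every array, so its channel alone holds no treatment. On the log2 scale, relative to each array's 75th percentile, the reference signal of BaP minus vehicle arrays differed by 0.09 for miR-184, 0.17 for miR-489, -0.04 for miR-207 and 0.03 for miR-878-3p (exact permutation p = 0.489, 0.325, 0.695 and 0.779, n = 6 each). Liver signal on the same scale differed by -0.19, -0.02, -0.03 and -0.02. For miR-489 the reference signal was thus the channel with the larger difference, upward on BaP arrays. Without BaP 2 that reference difference was 0.06. With quantile normalization of the reference channel the differences of miR-184, miR-489 and miR-878-3p had the opposite sign.

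Scan day moved with several members. miR-489 averaged 2.44, 1.39, 1.95 and 1.98 on days 1 to 4, and miR-878-3p averaged 2.22, 1.21, 2.18 and 1.67. Both were lowest on day 2, when the liver net intensity of miR-489 was 51.9 to 96.0 (days 1, 3 and 4 together, 139 to 261) and that of miR-878-3p was 53.2 to 132 (177 to 354). miR-207 averaged 2.25, 1.85, 1.82 and 1.82, and miR-184 averaged 2.55, 2.47, 1.60 and 2.48, with BaP 2 among the day 3 arrays.
In a limma F-test of scan day beside group, added after the data were seen, 55 of 212 miRNAs were called (25.9%), including miR-489 (adjusted p = 0.0416), miR-207 (adjusted p = 0.0499) and miR-878-3p (adjusted p = 0.0219) but not miR-184 (adjusted p = 0.126). With the median of the spots 54 were called, the same 3 members among them. These calls ended without an offset (0 of 212 called), with processed signals (1 called) and in the liver channel alone (3 called).
Each day held both groups, so BaP minus vehicle was also taken within days. Over days 1 to 4 it was 0.32, -0.61, -0.97 and 0.16 for miR-184, and 0.01, -0.02, -0.50 and -0.05 for miR-489. It was 0.02, 0.08, -0.20 and -0.03 for miR-207, and 0.24, -0.09, -0.53 and 0.20 for miR-878-3p. All 4 members were lower in BaP livers within day 3, which holds BaP 2, and none was lower in BaP livers on every day. BaP 3, the other BaP array of day 3, was also below both vehicle arrays of that day for all 4 members. With scan day as a block the differences were -0.39 for miR-184, -0.19 for miR-489, -0.05 for miR-207 and -0.12 for miR-878-3p.

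Each probe was printed 4 times in separate parts of the slide, and the spots show how well a value repeats. The SD of the log2 ratio over the 4 spots had a median over arrays of 0.067 for miR-184 and 0.050 for miR-207, against a median of 0.060 over the 212 miRNAs. For miR-878-3p it was 0.185 and for miR-489 it was 0.153, the largest and second largest of the 212. miR-184 and miR-207 thus repeated like other probes, and the probes of the pair with the common run repeated less closely.

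Some arrays held single low spots. A spot was counted as low when its log2 ratio lay more than 0.5 below the mean of the probe's other spots on that array. Of 48 spots, 4 of miR-489 and 3 of miR-878-3p were low, against 0.609% of spots over the 212 miRNAs and none for miR-184 and miR-207. On vehicle 5 the liver net intensity of miR-489 was 71.4 in copy 1 and 313 to 343 in copies 2 to 4. On BaP 4 copy 1 was likewise low, at 110 against 237 to 293. On vehicle 4, the third array of scan day 4, copy 1 was 113 against 168 to 202. That spot fell just short of being counted as low.
Copy 1 of miR-878-3p was also low on these 3 arrays of day 4, although it is printed elsewhere on the slide: 150 against 202 to 235 on vehicle 4, 121 against 269 to 340 on BaP 4, and 108 on vehicle 5, where copy 2 was 163 and copies 3 and 4 were 340 and 380. Copy 4 of miR-489 was the low one on BaP 2, at 39.7 against 192 to 250, and on vehicle 3, at 48.2 against 157 to 224. None of these spots was flagged as an outlier by the scanner software. With the median of the spots in place of the mean, the vehicle ratio of miR-489 was 2.13 and its rank 9.

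On BaP 2 the low value of miR-184 was not of this kind. All 4 liver spots were low together, at 97.8 to 139, while the other BaP arrays averaged 221 to 764. The SD of the log2 ratio over these spots was 0.198, the highest of miR-184 on any array. The reference net intensity, 182, was the highest of the 12 arrays. miR-184 ranked 43 by ratio among the miRNAs above background on BaP 2, and between 4 and 12 on the other 11 arrays.

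**Figure D4:**
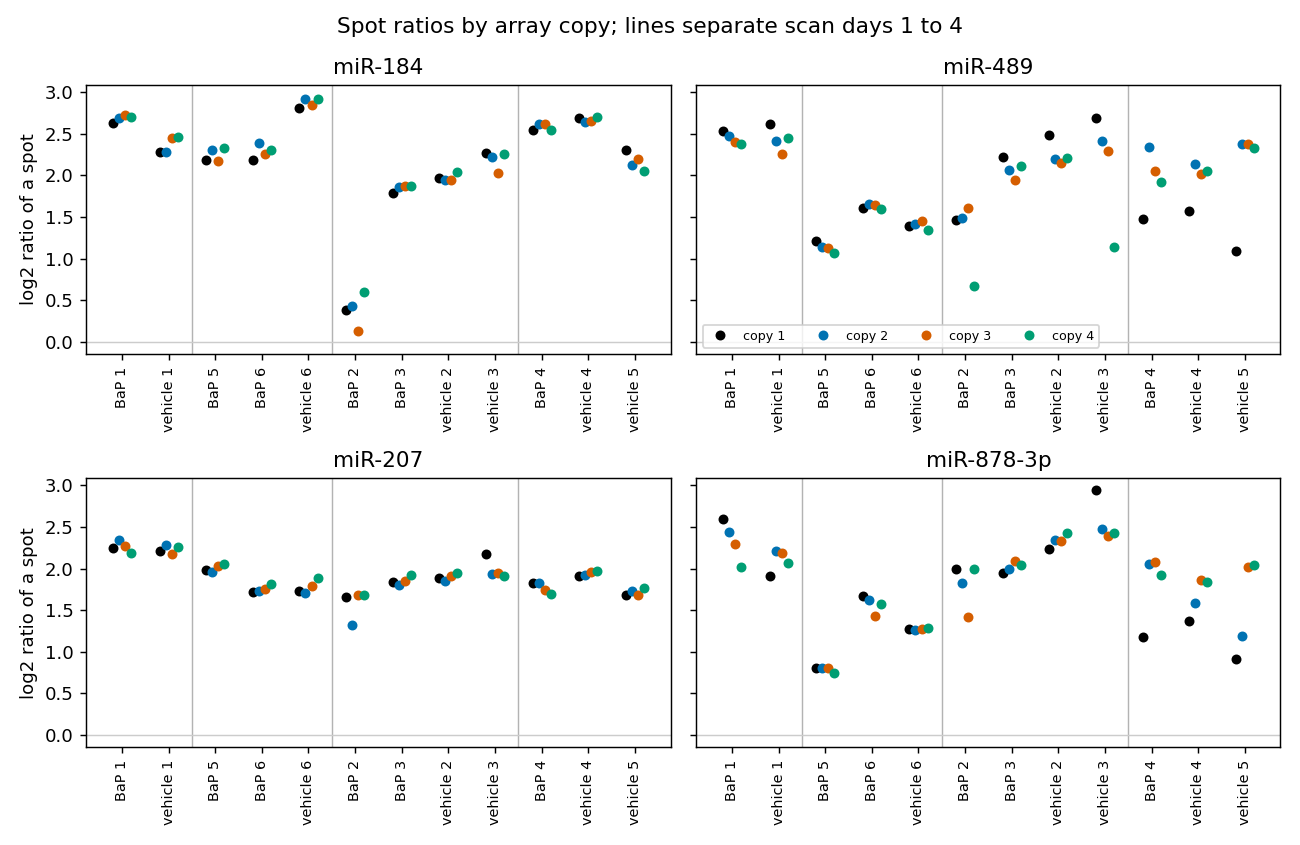
Log2 ratio of each printed copy (colours) of each member on each array, ordered by scan day (vertical lines) with BaP before vehicle within a day. Copies agree closely for miR-184 and miR-207 on most arrays. On BaP 2 all copies of miR-184 are low but spread more widely, from 0.12 to 0.60. Copy 1 of miR-489 and of miR-878-3p is the lowest copy on each day 4 array, though not counted as low on vehicle 4. Copy 4 of miR-489 is low on 2 arrays of day 3.

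Whether the members ran together from liver to liver was tested over the 12 arrays with group means removed, for 6 pairs. With group means alone removed, only miR-489 and miR-878-3p passed, with r = 0.80 (adjusted permutation p = 0.0127, raw p = 0.0021) and Spearman's rho = 0.76 (adjusted permutation p = 0.0358, raw p = 0.00597). Without BaP 5 and vehicle 6, the arrays farthest from the miR-489 median, r was 0.57 (permutation p = 0.0788), so the relation rests in part on those day 2 arrays. For miR-489 with miR-207, leaving out the same arrays raised r from 0.57 to 0.85 (unadjusted permutation p = 0.00125). That order rests on leaving out these arrays with group means alone removed. For miR-489 with miR-207, r was 0.33 with scan day means also removed and -0.14 with processed signals. Both were lower than for miR-489 with miR-878-3p. For miR-489 with miR-878-3p and scan day means also removed, r was 0.72 (adjusted permutation p = 0.0218) and rho 0.71 (adjusted permutation p = 0.0727). With processed signals r was 0.68 (adjusted permutation p = 0.0769) and rho 0.86 (adjusted permutation p = 0.00384), so in each of these settings 1 of the measures missed the threshold. With scan day means removed, miR-184 also passed by r with miR-489 (r = 0.75, adjusted permutation p = 0.0218) and with miR-207 (r = 0.67, adjusted permutation p = 0.031), but not by rho (adjusted permutation p = 0.0795 and 0.126). Without BaP 2 and vehicle 5 those r were 0.47 and 0.21. With group means alone removed, the other 5 pairs had r from -0.17 to 0.57 and adjusted permutation p of at least 0.158.

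Among the other 211 tested miRNAs, those most like each member were named by r over the same 12 arrays, as a description. miR-184 was most like miR-183* (r = 0.88), miR-294* (0.78) and miR-193 (0.71), against a median r of -0.04. miR-489 was most like miR-487b (0.85), miR-203 (0.85) and miR-878-3p (0.80), against a median of 0.15. miR-207 was most like miR-29b (0.97), miR-192 (0.95) and miR-503* (0.94), against a median of 0.38.
miR-878-3p was most like miR-335-3p (0.96), miR-743a (0.93) and miR-489 (0.80), against a median of 0.19. Of these, miR-743a belongs to the X-linked cluster of miR-878, and its r was 0.84 with scan day means also removed. It was above background in liver on only 6 arrays, with liver net intensities of 9.10 to 46.7, so its ratio varied near the background limit. These r share arrays, scan days and the reference channel.

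Probes with the same number, and the genomic neighbours, had lower mean ratios than miR-489 and miR-878-3p in both groups. Both members were chosen by a high ratio, so this difference is only a description. Probes for human and rat miR-489 were above background on no array in either channel, with liver net intensities of 2.26 to 23.8 and -8.34 to 50.8. The probe for rat miR-878 was above background in liver on 9 of 12 arrays and in the reference on none, with ratios of 0.58 ± 0.36 in BaP livers and 0.62 ± 0.25 in vehicle livers. The other arm, miR-878-5p, was above background on no array in either channel, and its liver net intensity was -9.82 to 11.0.
Only the rat miR-878 probe, of these 4, was above background in liver on any array. Its ratio lacks a reference signal above background, and the others lack a signal above background in either channel. With the offset such ratios are drawn toward 0, so their sizes were not ranked. The seed partner miR-425, chosen after the sequences were compared, was above background in liver on 1 array, with ratios of -0.26 ± 0.08 in BaP livers and -0.25 ± 0.10 in vehicle livers.

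miR-653, encoded beside miR-489, was above background on no array in either channel, with ratios of -0.01 ± 0.09 in BaP livers and -0.01 ± 0.11 in vehicle livers. A list of the X-linked testis cluster around miR-878 held 21 other probes of the array. It left out miR-881*, which had ratios of -0.25 ± 0.09 in BaP livers and -0.26 ± 0.05 in vehicle livers. Of the 21 listed, 10 were above background in liver on no array and 2, miR-883a-5p and miR-465b-5p, on all 12, while 6 were above background in the reference on all 12. Their mean ratios ranged from -0.98 to 0.17 in BaP livers and from -1.06 to 0.19 in vehicle livers, where 18 of 21 were below 0.
miR-881, for example, had ratios of -0.98 ± 0.11 in BaP livers and -1.06 ± 0.15 in vehicle livers and a median reference net intensity of 161. It was above background in liver on no array, so its ratios are upper limits. Among these probes of its cluster, miR-878-3p, which was chosen by its high ratio, was the only one with a mean ratio above 1 in these livers. Muscle miRNAs are given because miR-489 is known from muscle stem cells. For miR-1, miR-133a, miR-133b and miR-206 the mean ratios were -4.14 to -1.27 in vehicle livers and -4.13 to -1.08 in BaP livers. In liver miR-206 was above background on 1 array and the others on none, so these means are upper limits. Mean ratios were higher for miR-208a (-0.74 in BaP livers, -0.82 in vehicle livers) and miR-208b (-0.13 in BaP livers, -0.16 in vehicle livers).

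**Figure D5:**
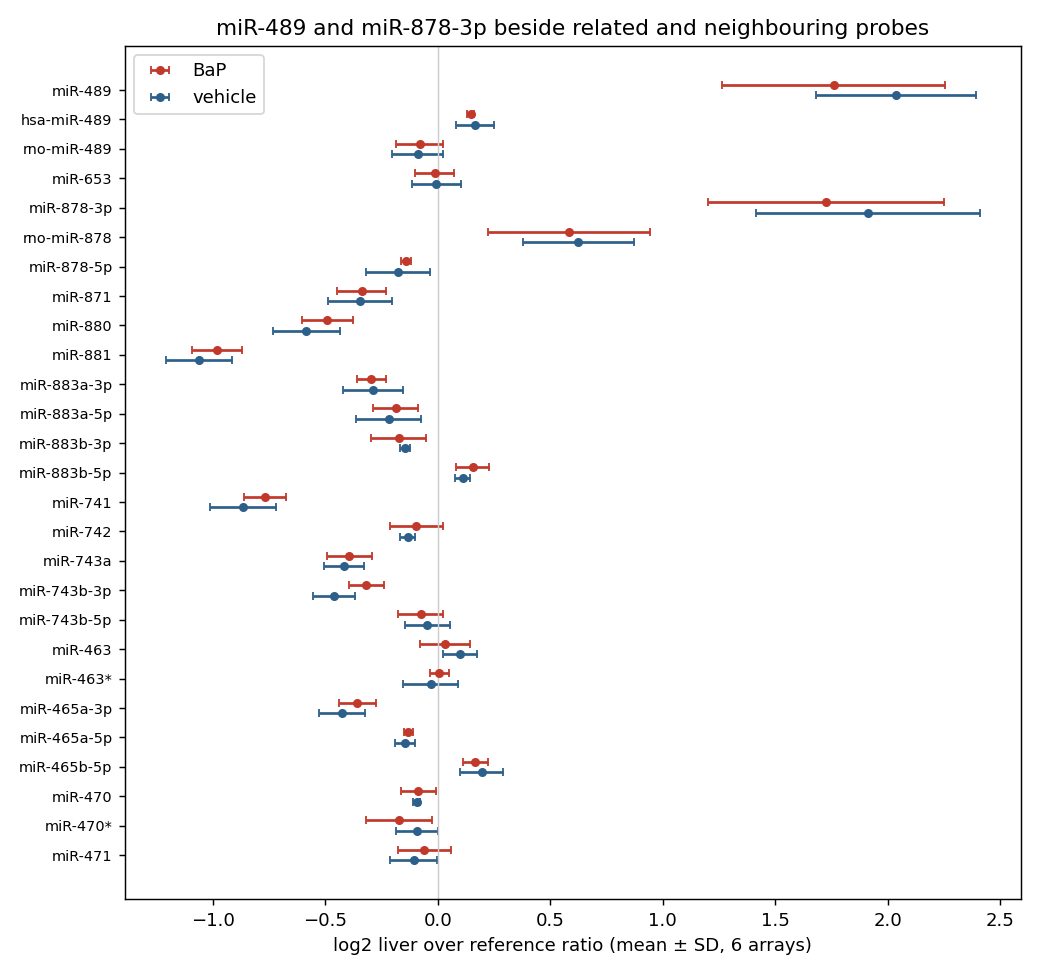
Mean log2 liver over reference ratio ± SD (6 arrays) in BaP (red, above) and vehicle (blue, below) livers for miR-489 and miR-878-3p, probes of the same number, miR-653 and the listed probes of the X-linked cluster. miR-489 and miR-878-3p lie between 1.72 and 2.04, the rat miR-878 probe near 0.6, and the others between -1.06 and 0.19.

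The authors' deposited value table gives log2 values for 248 of 2001 probes, 229 of them mouse miRNAs. Its direction and scale are not stated, and set against the scanner intensities of 15 bright mouse probes it ran opposite to the liver over reference ratio (slope -0.88, r = -0.99 over arrays and probes). miR-489 averaged -2.08 ± 0.60 in BaP livers and -2.39 ± 0.41 in vehicle livers in the authors' deposited table, the lowest vehicle mean of the 248 probes. miR-878-3p averaged -2.11 ± 0.58 in BaP livers and -2.30 ± 0.38 in vehicle livers there, the second lowest. miR-184 and miR-207 have no value in that table.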

How the data were processed

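Small RNA was measured on 12 two-colour arrays, 1 per liver. The deposited intensities give mean signal, local background and processed signal per spot. The submitters' processing notes name Agilent Feature Extraction 9.5.3.1 as the software behind them. The flags and spot classes used with them are other columns of the deposited scanner files. The authors' deposited value table holds log2 values whose making is not given in the sources used here. The table's columns were matched to samples by name, and each sample's group was taken from the labels. Replicate numbers follow accession order.

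With limma 3.58.1 under R 4.3.3, normexp with an offset of 50 corrected the background and loess normalized the ratios of each array, control and flagged spots having weight 0. Unflagged spots of a probe were averaged. The background limit of an array and channel was the median of 28 negative control spots plus 2.6 scaled median absolute deviations, and a probe passed when most of its spots did. The 212 mouse miRNAs that passed were fitted with lmFit and eBayes and adjusted by Benjamini-Hochberg (threshold 0.05). The limma step was checked on simulated data. Exact permutation tests used all 924 regroupings, with a smallest p of 0.00216, and correlations used 100000 resamples (scipy 1.17.1, numpy 2.4.6). Named besides the members were probes of the same number, rank neighbours, the 3 most alike miRNAs, miR-122 and genomic neighbours. The members and lists were chosen with earlier results of these data known. Alternatives covered background correction, normalization, flags, spot averaging, the filter, scan day, the deposited table and each array left out.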

Additional observations from a re-analysis of the deposited data

Results flagged for a closer look

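Dixon's test was applied to the log2 ratio and to the log2 signal of each channel for every member and group, 24 sets of 6 arrays in all. It marked 3 values, and chance alone marks about 1 set in 20.

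The log2 ratio of miR-184 on BaP 2 was 0.38, while the other BaP arrays had 1.85 to 2.71. The same array had the highest background limit in the reference channel, and the part of that in the low ratio was not tested. For miR-207, the log2 signal relative to the array's 75th percentile was low on vehicle 1 in both channels: 0.44 in liver, against 0.75 to 0.87 on the other vehicle arrays, and -0.92 in the reference, against -0.53 to -0.47. Its ratio on vehicle 1, 2.24, was the highest of the vehicle arrays. Vehicle 1 also had the most mouse miRNAs above background in liver, 341, counted at the lowest liver background limit of the 12 arrays (1.92).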

How the results depend on the processing

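No miRNA was called between BaP and vehicle under any of 29 alternatives (unadjusted p under 0.05 for 0 to 11), and no member's adjusted p passed under any. The sign of the difference turned for miR-207 with processed signals (0.0176), with median centring (0.0245) and within scan days 1 (0.0244) and 2 (0.0779). It turned for miR-184 within day 1 (0.32) and day 4 (0.16), for miR-878-3p within day 1 (0.24) and day 4 (0.20), and for miR-489 within day 1 (0.0146). Leaving out single arrays gave -0.51 to -0.05 for miR-184, -0.42 to -0.15 for miR-489, -0.125 to 0.0161 for miR-207 and -0.32 to -0.0014 for miR-878-3p. The vehicle ratios moved by more than their SD as follows. Without normalization they were 1.37 (miR-184), 1.25 (miR-489), 0.97 (miR-207) and 0.98 (miR-878-3p), and with median centring 1.51, 1.39, 1.12 and 1.12 in the same order. Processed signals gave 3.15 for miR-489, 1.55 for miR-207 and 2.49 for miR-878-3p, and no offset gave 2.73 for miR-184, 3.09 for miR-489 and 2.42 for miR-878-3p. miR-489 was 2.64 with an offset of 16 and 2.39 in the authors' deposited table with its sign turned. Leaving out single arrays kept them at 2.28 to 2.46 for miR-184, 1.96 to 2.16 for miR-489, 1.86 to 1.96 for miR-207 and 1.78 to 2.04 for miR-878-3p. In the reference channel, quantile normalization gave -0.0147 for miR-184, -0.0012 for miR-489 and -0.11 for miR-878-3p (unadjusted exact permutation p = 0.0411). Leaving out single arrays there gave 0.02 to 0.17 for miR-184, 0.06 to 0.24 for miR-489, -0.11 to -0.0032 for miR-207 and -0.0393 to 0.0847 for miR-878-3p, and without vehicle 1 the -0.11 of miR-207 had an unadjusted exact permutation p of 0.0498. The scan day calls, 55 as reported, were 0 without an offset, 1 with processed signals and 3 in the liver channel alone, but 54 with the median of the spots, where the same 3 members stayed called. Under the first 3 settings the adjusted p was 0.625, 0.718 and 0.182 for miR-489, 0.612, 0.740 and 0.844 for miR-207, and 0.174, 0.314 and 0.0907 for miR-878-3p. With processed signals r was 0.68 for miR-489 with miR-878-3p, -0.14 for miR-489 with miR-207 and -0.52 for miR-207 with miR-878-3p. With scan day removed r was 0.75 for miR-184 with miR-489 and 0.67 for miR-184 with miR-207, both now past the threshold, and 0.60 for miR-184 with miR-878-3p. The cause of these changes was not tested. The sample titles give no common replicate numbers, but their final digits match between groups, and 5 of the 6 matches fall on 1 scan day. Deviations of matched arrays correlated from -0.08 to 0.74, above 0.1 in 4 of 6, and the lowest came from the match across scan days. Of the 12 arrays, 7 matched best with the array of their own digit. The digits were not taken as a pairing. With the digit as a replicate block, added after the data were seen, 0 of 212 were called, the members' differences were the same (-0.37, -0.28, -0.05 and -0.19) and their adjusted p was 0.952. Signal over background limits miR-489 most, since its reference signal is at or under its limit on 5 arrays.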
